A study of Mus musculus with 6 samples.

Results

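A set of 10 genes of insulin and insulin-like growth factor (IGF) signalling was followed in mouse embryonic stem cells: the receptor genes Insr and Igf1r, the adaptor genes Irs1, Irs2 and Grb10, the IGF-binding protein genes Igfbp2, Igfbp3, Igfbp4 and Igfbp5, and Igf2bp1, which encodes an RNA-binding protein. They are 10 of the 53465 genes in each count table. The set was drawn up around Grb10 because its counts were much lower in one of the groups compared below, and the other 9 were added for their place in the pathway. The difference of Grb10 is therefore a starting point and not a finding, and differences of the 10 genes between the groups are described without p-values. The number of them that passed the test run over all genes is given once below, and nothing is read from it.

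The cells were of the line Royan B20, grown on 0.1% gelatin and taken through 7 passages in R2i with LIF. Every culture received 1 µM PD0329501 (the labels' spelling of a MEK inhibitor) and 10 µM SB431542, which blocks the receptors for TGF-beta, activin and nodal. The R2i control group (3 libraries) had nothing further, and the BMP-inhibited group (3 libraries) also had 250 nM noggin, which traps BMP ligands, and 5 µM dorsomorphin, which inhibits BMP type I receptor kinases. The labels name 3 biological replicates a group from 1 line. They state neither how long the inhibitors were present nor whether the medium held insulin. Dorsomorphin is also known as an inhibitor of AMP-activated kinase, and this action and the loss of BMP signals cannot be told apart in this design.

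Insulin and the IGFs bind the related tyrosine kinases INSR and IGF1R. These phosphorylate the docking proteins IRS1 and IRS2, which recruit PI3 kinase and so activate AKT and mTOR complexes and send FOXO factors out of the nucleus. GRB10 binds the activated receptors and damps their signal, and its gene is imprinted. IGF-binding proteins hold IGFs outside the cell, and mouse embryonic stem cells are commonly grown with insulin in the medium.

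Gene counts summed to between 31474666 and 35322844 per library. Of 15951 genes tested, 10232 (64.1%) had an adjusted p under 0.05 in edgeR's quasi-likelihood test, so a called gene was the usual case here. The first principal component, with 82.6% of the variance, separated the groups. The second (5.54% of the variance) spread the BMP-inhibited replicates, with replicate 1 at -20.4, replicate 2 at 27.2 and replicate 3 at -4.43. Summed over 10 stem cell markers, libraries held 5100 to 5260 CPM (counts scaled to library size) in control cultures and 4820 to 5070 CPM under BMP inhibition, with 2 markers higher (Utf1 and Dppa5a, by 0.87 and 0.83 on the log2 scale) and 5 lower, among them Nanog (-0.47), Esrrb (-0.32) and Sox2 (-0.25). Of the 7 trophectoderm markers 5 were tested and 4 were higher, with sums of 159 to 162 and 288 to 364 CPM. Of the 6 primitive endoderm markers, all tested, 2 were higher and 2 lower (30.6 to 32.5 and 19.9 to 23.3 CPM). Of the 9 fibroblast markers 4 were tested and 3 were higher, at low sums of 6.44 to 7.88 and 10.2 to 11.3 CPM, with Col3a1, Twist2 and Lum at 0 in all control libraries. All 5 markers of the 2-cell-like state were higher (0.0276 to 0.146 against 14.8 to 22.8 CPM), and Zscan4c and Tcstv3 were at 0 in all control libraries. The part of these shifts in the values below was not tested, and in bulk RNA fewer cells of a type and less RNA per cell cannot be told apart.

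The 2 starts of Grb10 in the RefSeq entries used here lie 9449 bases apart, and the gene's counts sum over transcripts from both. In the GENCODE model the gene reaches further upstream, to 12038683, so these need not be its only starts. The upstream windows of the 2 RefSeq starts are shown because they differ in base composition and the count tables do not separate the starts. Each window holds the 250 bases before a start in RefSeq on GRCm38.p6, minus strand, 5′ to 3′, with CpG dinucleotides in capitals.
Grb10 first start, chr11:12037421-12037670: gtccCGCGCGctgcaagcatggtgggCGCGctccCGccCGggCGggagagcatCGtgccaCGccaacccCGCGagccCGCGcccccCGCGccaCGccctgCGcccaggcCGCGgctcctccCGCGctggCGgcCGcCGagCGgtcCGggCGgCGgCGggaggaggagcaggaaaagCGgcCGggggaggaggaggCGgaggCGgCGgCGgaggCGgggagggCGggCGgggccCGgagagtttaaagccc
Grb10 second start, chr11:12027972-12028221: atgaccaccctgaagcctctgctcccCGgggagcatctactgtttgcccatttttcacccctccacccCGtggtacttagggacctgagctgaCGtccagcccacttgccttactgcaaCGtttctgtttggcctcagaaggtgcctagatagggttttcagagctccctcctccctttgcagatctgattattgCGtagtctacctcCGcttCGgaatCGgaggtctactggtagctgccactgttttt

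The first Grb10 window held 40 CpG dinucleotides and 81.2% G and C, more CpG than 98.7% of 32851 RefSeq promoter windows. The second held 8, close to the median of 6, with 54.0% G and C. RefSeq entries were found for 8 of the 10 genes, with 10 windows in all. Besides that first Grb10 window, those of Igf1r, Irs2, Igfbp3 and Irs1 were rich in CpG, with 42, 34, 32 and 28.

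Irs1 and Irs2 are shown as a pair because these close relatives differed between the groups in opposite directions. The windows are again minus strand on GRCm38.p6, with matches to the searched motifs in capitals.
Irs1, chr1:82291440-82291689: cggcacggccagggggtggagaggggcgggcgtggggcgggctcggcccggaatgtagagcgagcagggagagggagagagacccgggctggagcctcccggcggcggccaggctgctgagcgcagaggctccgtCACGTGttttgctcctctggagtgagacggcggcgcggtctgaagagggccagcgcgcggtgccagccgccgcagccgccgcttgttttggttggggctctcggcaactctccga
Irs2, chr8:11008930-11009179: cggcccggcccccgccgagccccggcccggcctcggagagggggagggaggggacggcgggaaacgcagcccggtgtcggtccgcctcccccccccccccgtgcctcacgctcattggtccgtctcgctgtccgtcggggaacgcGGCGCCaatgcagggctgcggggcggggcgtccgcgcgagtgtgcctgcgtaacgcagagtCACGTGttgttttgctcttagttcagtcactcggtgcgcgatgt

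The longest runs of letters common to both windows had 10 bases, and there were 2 of them, gtCACGTGtt and tgttttgctc. They overlap one another in both windows, and how often other pairs of windows share such runs was not computed. The second ended 101 bases before the Irs1 start and 27 bases before the Irs2 start. The first ended 107 bases before the Irs1 start and 36 bases before the Irs2 start. It contains the E-box CACGTG, found in 6.02% of all windows and, among the 10 windows of these genes, also in the first of Igfbp2. Irs2 held GGCGCC, the GC-rich core bound by BMP-activated SMADs, which 9.59% of windows hold. The other 3 motifs, searched on both strands, were in none of the 10 windows: GTAAACA (FOXO core, 3.17% of windows), TGATGCAA (C/EBP-ATF composite, 0.791%) and TGACGTCA (CRE, 1.55%). These are matches of letters and were not measured as binding.

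Grb10 (ENSMUSG00000020176, chromosome 11, 11930508 to 12038683, minus strand) was at 395, 396 and 395 CPM in control replicates 1 to 3. In BMP-inhibited replicates it was at 107, 106 and 94.9 CPM. The groups were far apart, with the BMP-inhibited mean at 25.9% of control (395 ± 0.625 against 102 ± 6.48 CPM, SD, n = 3; log2 fold change -1.95, SE 0.05). The control SD was smaller than the 3.38 CPM that counting error alone gives at this depth, so it understates the error. Igfbp3 was the only one of the 10 with a larger log2 difference, and 95.6% of tested genes differed by less than Grb10. Since Grb10 was chosen for this difference, nothing is read from its size or rank.

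The receptor genes were both lower, by less than 2-fold. Insr (ENSMUSG00000005534, chromosome 8, 3122061 to 3279617) was at 29.4, 28.6 and 29.2 CPM in control replicates and 23.9, 18.4 and 17.8 CPM under BMP inhibition. All BMP-inhibited values lay under all controls, and replicate 1 was nearest to them (log2 fold change -0.54, SE 0.09). Igf1r (ENSMUSG00000005533, chromosome 7, 67952827 to 68233668) was at 52.9, 55.1 and 49.8 against 43.0, 38.7 and 40.0 CPM, again without overlap (log2 fold change -0.38, SE 0.06). Per kilobase of merged exons, the scale used here to compare genes, Igf1r exceeded Insr by a factor of 1.48 ± 0.0905 in control and 1.68 ± 0.187 in BMP-inhibited libraries (SD, n = 3), and the ranges overlapped. Grb10 exceeded Igf1r by a factor of 13.9 ± 0.704 in control and 4.66 ± 0.338 in BMP-inhibited libraries.

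The docking protein genes went different ways. Irs2 (ENSMUSG00000038894, chromosome 8, 10984681 to 11008458) was at 16.6, 15.7 and 15.8 CPM in control replicates and 36.7, 28.1 and 28.2 CPM under BMP inhibition. Each BMP-inhibited value was above every control, with replicate 1 the highest (log2 fold change 0.95, SE 0.10). Irs1 (ENSMUSG00000055980, chromosome 1, 82233101 to 82291416) was scarce, at 1.76, 1.60 and 1.15 CPM in control replicates and 0.840, 0.449 and 0.700 CPM under BMP inhibition. These rest on 156 counts over the 3 controls and 63 over the BMP-inhibited libraries, and the groups did not overlap (log2 fold change -1.18, SE 0.31). Irs2 already exceeded Irs1 in control, at 13.7, 14.2 and 19.9 times Irs1 per kilobase, and was at 63.2, 90.5 and 58.2 times Irs1 in BMP-inhibited replicates. Their sum per kilobase was 2.70 ± 0.103 CPM in control libraries and 4.98 ± 0.800 CPM under BMP inhibition (SD, n = 3). Exons of an antisense gene overlap both, Gm9747 for Irs1 and 9530052E02Rik for Irs2. Gm9747 had 0 counts in all 6 libraries and 9530052E02Rik had 1 in control and 3 in BMP-inhibited libraries, and whether counting used strand is not given in the sources used here. For Irs1, 30.5% of its 50-base transcript windows are also found in Gm9747 on either strand, so its level is uncertain.

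**Figure D1:**
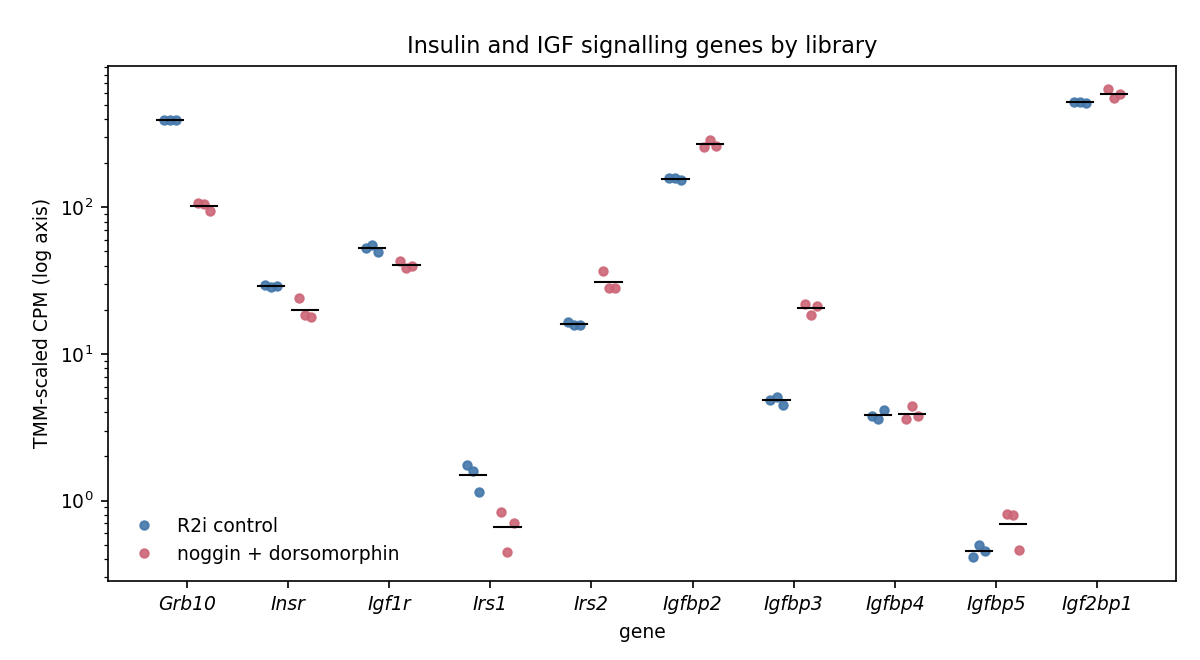
TMM-scaled CPM (log axis) of the 10 genes in each of the 6 libraries, with points for libraries and black lines for group means. Grb10 lies at 395 to 396 CPM in control libraries and 94.9 to 107 CPM in the others, and the groups overlap for Igfbp4 and Igfbp5.

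Among the IGF-binding proteins, Igfbp2 was by far the most abundant and Igfbp3 differed most. Igfbp2 (ENSMUSG00000039323, chromosome 1, 72824503 to 72852474) was at 158, 158 and 154 CPM in control replicates and 256, 290 and 263 CPM under BMP inhibition. That is 1.72 times the control mean (log2 fold change 0.79, SE 0.05). Igfbp3 (ENSMUSG00000020427, chromosome 11, 7206086 to 7213923), whose product is the main IGF carrier of serum, was at 4.86, 5.10 and 4.49 CPM in control replicates and 21.8, 18.5 and 21.4 CPM under BMP inhibition. The ratio of means was 4.27 (log2 fold change 2.09, SE 0.11), and the groups lay well apart. The marker sums given above also differed between the groups. Those of the trophectoderm, fibroblast and 2-cell-like lists were higher under BMP inhibition, and those of the stem cell and primitive endoderm lists were lower. The part of these shifts in the values of Igfbp2 and Igfbp3 was not tested.

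Igfbp4 and Igfbp5 overlapped between the groups. Igfbp4 (ENSMUSG00000017493, chromosome 11, 99041244 to 99054392) was at 3.75, 3.59 and 4.13 against 3.58, 4.43 and 3.75 CPM (log2 fold change 0.04, SE 0.16). Igfbp5 (ENSMUSG00000026185, chromosome 1, 72857932 to 72874884) was near the detection limit, with 47 counts over the 3 controls and 65 over the BMP-inhibited libraries. Its CPM was 0.410, 0.497 and 0.452 in control and 0.807, 0.803 and 0.457 in BMP-inhibited replicates, the last inside the control range (log2 fold change 0.59, SE 0.37). Summed per kilobase, the 4 binding protein genes were at 87.2 ± 1.13 CPM in control libraries and 154 ± 9.25 CPM under BMP inhibition (SD, n = 3). Igfbp2 made up 97.2% and 95.1% of these sums, so the larger relative difference of Igfbp3 altered the total little.

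Igf2bp1 (ENSMUSG00000013415, chromosome 11, 95957163 to 96005940) encodes a protein that binds the Igf2 messenger and many others. It was at 519, 526 and 518 CPM in control replicates and 637, 559 and 592 CPM under BMP inhibition. The groups did not overlap, but the difference was small (log2 fold change 0.19, SE 0.05). Its exons overlap the microRNA gene Mir3063, with 0 counts, and the antisense gene Gm29202, with 89 counts in control and 17 in BMP-inhibited libraries.

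**Figure D2:**
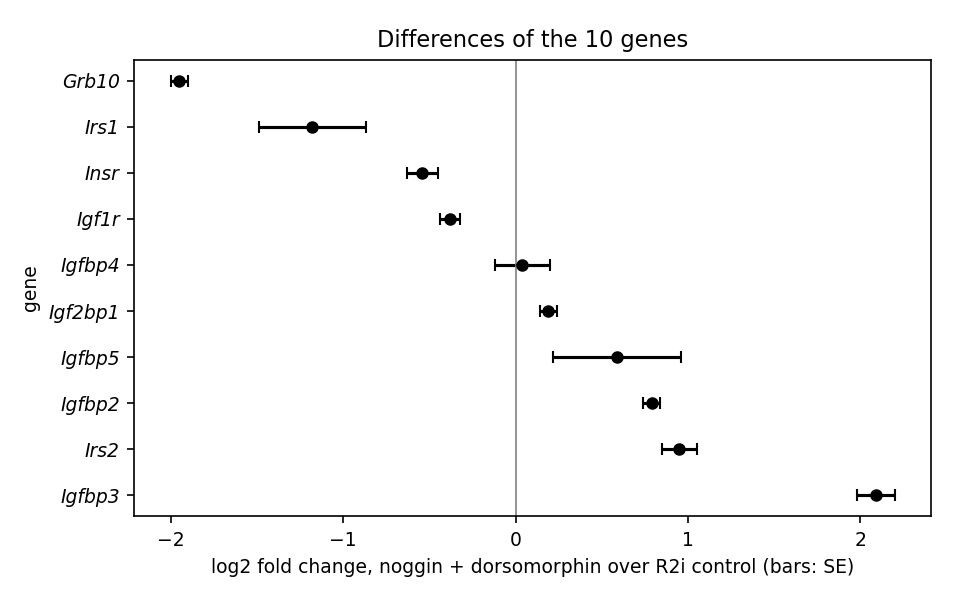
Log2 fold change of BMP-inhibited over control cultures for each of the 10 genes, with points for the fitted value and bars for its standard error. Grb10 (-1.95) and Igfbp3 (2.09) lie at the ends, and the bars of Igfbp4 (0.04 ± 0.16) span 0.

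In TMM-scaled CPM the groups did not overlap for 8 of the 10 genes, 4 higher and 4 lower, where 68.6% of all tested genes did not overlap. The same 8 had an adjusted p under 0.05, against 64.1% of all genes, and nothing is read from this since the set was chosen on the contrast. The median log2 fold change of all 10 genes was 0.12, beside -0.0031 over all tested genes. The median absolute log2 fold change was 0.69 for the 10 genes and 0.367 for all tested genes. Nothing is read from these medians either, for the same reason.

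Levels per kilobase in control ran from Igfbp2 (84.8 CPM) through Igf2bp1 (53.8) and Grb10 (43.5) down to Igf1r (3.13), Irs2 (2.53), Insr (2.11), Igfbp3 (1.54), Igfbp4 (0.865), Irs1 (0.164) and Igfbp5 (0.0754). No neighbours in this order had overlapping ranges over the 3 libraries. The first 3 stood higher than 91.9% or more of tested genes on this scale, while Irs1 and Igfbp5 exceeded 7.73% and 3.48%. In BMP-inhibited cultures the leading 3 kept their order, with Grb10 at 11.3 CPM per kilobase. Igfbp3 moved from rank 7 to rank 4 (6.57 CPM per kilobase), above Irs2 (4.90), Igf1r (2.42) and Insr (1.46). Igfbp5 (0.115) and Irs1 (0.0725) closed the list with overlapping ranges.

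Replicates of the BMP-inhibited group varied more. The SD of log2 CPM was larger in that group than in control for all 10 genes, as it was for 70.9% of tested genes. Its median over the 10 was 0.0587 in control and 0.144 in BMP-inhibited libraries, beside 0.0672 and 0.120 over all tested genes. Replicate 1 was the highest of its group for 8 of the 10 genes, and this share over all tested genes was not computed. The margin was narrow for Grb10 (107 against 106 CPM), Igfbp3 (21.8 against 21.4 CPM) and Igfbp5 (0.807 against 0.803 CPM). For Insr and Irs2 replicate 1 stood 0.266 and 0.255 above the mean of its group on the log2 scale. Replicates 2 and 3 were both below that mean. Igfbp2 and Igfbp4 were instead highest in replicate 2, and the widest gaps were those of Irs1 and Igfbp5, the genes with the fewest counts.

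**Figure D3:**
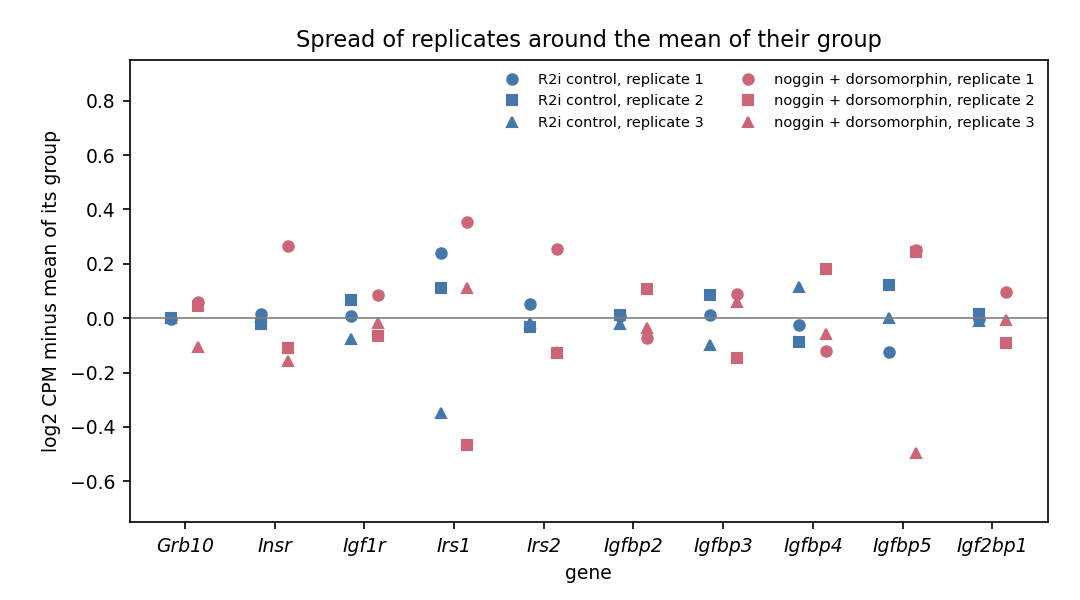
Log2 CPM of each library minus the mean of its own group, for the 10 genes, with colour for the group and symbol for the replicate. BMP-inhibited replicate 1 lies at 0.266 for Insr and 0.255 for Irs2, while the control points of these genes lie within 0.051 of 0.

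Of 67 other genes of the pathway, listed by role, 58 were tested: 22 rose, 16 fell and 20 did not pass. That is 65.5% called, beside 64.1% of all genes, with a median log2 fold change of 0.04. The ligand Igf2, a fetal growth factor from an imprinted locus, was at 0.205, 0.414 and 0.513 CPM in control replicates and 4.94, 4.21 and 4.87 CPM under BMP inhibition. It rose by 3.62 on the log2 scale (SE 0.26, adjusted p = 2.39e-09) from a level near the detection limit. Exons of Gm49394 on the same strand (9 and 53 counts) and of the antisense Igf2os (39 and 332 counts) overlap Igf2, so its counts are uncertain. Igf1, Ins1 and Ins2 were too low to test, with 2, 0 and 0 counts in control and 2, 0 and 2 in BMP-inhibited libraries.

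Both other receptor genes fell, where 31.7% of all tested genes fell. Igf2r, which clears IGF2 and sorts lysosomal enzymes, fell by 0.77 on the log2 scale (SE 0.06, adjusted p = 1.08e-08), with means of 225 ± 4.22 and 132 ± 13 CPM (SD, n = 3). Insrr, the insulin receptor-related receptor, went from 79 to 8 counts (log2 fold change -3.12, SE 0.48).

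Among secreted binding partners and proteases 4 of 9 were tested. Htra1, a secreted protease that can cleave IGF-binding proteins, rose by 1.97 on the log2 scale (SE 0.08, adjusted p = 1.28e-10), with means of 34.2 ± 2.54 and 133 ± 15.8 CPM (SD, n = 3). Stc2, a stanniocalcin that inhibits the IGFBP-cleaving pappalysins, fell by 2.14 on the log2 scale, with means of 59.5 ± 0.960 and 13.5 ± 1.14 CPM. Pappa and Pappa2, which encode pappalysins, had 0 counts in control and 2 and 3 in BMP-inhibited libraries. Igfals, whose product joins IGF and IGFBP3 in the serum complex, fell by 1.26 on the log2 scale, and Igfbp7 did not pass (log2 fold change -0.06, SE 0.20). Igfbp1, which lies 3.54 kb from Igfbp3, had 0 counts in every library.

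Of 14 tested adaptor genes 4 rose, 1 fell and 9 did not pass (35.7% called, beside 64.1% of all genes). Dok1, a docking protein of tyrosine kinases, rose by 1.02, while Grb2, Sos2 and Sos1, which link receptors to RAS, rose by 0.31, 0.30 and 0.22. Gab1, a docking protein of many receptors, fell by 0.34 on the log2 scale. The relatives of Grb10 did not pass: Grb7 was at 30.4 ± 0.477 and 29.9 ± 0.193 CPM and Grb14 at 0.999 ± 0.293 and 1.35 ± 0.169 CPM (SD, n = 3). For Grb7 the log2 fold change was -0.02 (SE 0.06), and for Grb14 it was 0.44 (SE 0.28).

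Of 11 genes listed as brakes on the pathway 7 rose and 2 fell, where 32.4% of all tested genes rose and 31.7% fell. In all 81.8% of them were called, beside 64.1% of all genes. Phlpp2, an AKT phosphatase gene, rose by 1.53 (SE 0.10), and the phosphoinositide phosphatase gene Inppl1 by 0.79. Trib3, a pseudokinase that binds AKT and a stress-induced gene, fell by 1.48 on the log2 scale, with means of 205 ± 3.38 and 73.6 ± 11.8 CPM (SD, n = 3). Nedd4, a ubiquitin ligase that associates with GRB10, fell by 0.46 (SE 0.04), with means of 1660 ± 22 and 1210 ± 43 CPM. Whether NEDD4 restrains the pathway in these cells was not tested. Genes of PI3 kinase, PDPK1 and AKT had 7 risers and 1 faller among 10, where again 32.4% of all tested genes rose and 31.7% fell. Of these 10, 80.0% were called, beside 64.1% of all genes. Pik3r3, Pik3cd and Pik3cb rose by 1.14, 0.67 and 0.50, and Akt1 and Akt2 by 0.46 and 0.45. The regulatory subunit gene Pik3r1 fell by 0.39 on the log2 scale. Inppl1 overlaps antisense genes and Pik3r3 a gene on the same strand.

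Further downstream 2 of 12 genes rose and 4 fell, where 32.4% of all tested genes rose and 31.7% fell. Gsk3b and Gsk3a, kinases that AKT inhibits, rose by 0.51 and 0.29. Slc2a4, the insulin-regulated glucose transporter, had a log2 fold change of -1.19 (SE 0.25) and Foxo6 one of -0.87 (SE 0.15). In Slc2a4, BMP-inhibited replicate 2 stood at 3.88 CPM against 1.84 and 1.61 CPM in replicates 1 and 3, with controls at 5.27 CPM or above. Mtor was lower by a narrow margin (log2 fold change -0.15, SE 0.05, adjusted p = 0.0206), and this call was lost without control replicate 2 or 3 or BMP-inhibited replicate 3 (adjusted p = 0.0716, 0.0570 and 0.128). Foxo1, Foxo3 and Foxo4 did not pass, with log2 fold changes of 0.08, -0.01 and -0.07 (SE 0.06, 0.05 and 0.06).

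All 4 genes of the IGF2 messenger-binding and LIN28 group fell, where 31.7% of all tested genes fell, and Igf2bp1 was slightly higher. Igf2bp3 and Igf2bp2, paralogs of Igf2bp1, had control means of 186 ± 0.666 and 194 ± 4.12 CPM, and BMP-inhibited means of 111 ± 6.81 and 144 ± 8.86 CPM (SD, n = 3). Their log2 fold changes were -0.75 (SE 0.05, adjusted p = 4.72e-10) and -0.44 (SE 0.05, adjusted p = 4.03e-07). Lin28a and Lin28b, which block maturation of let-7 microRNAs, fell by 0.25 and 0.38 on the log2 scale. Igf2bp3, Lin28a, Gsk3a, Gab1, Foxo1 and Igfbp7 also overlap antisense genes, and Pappa2 a gene on the same strand.

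**Figure D4:**
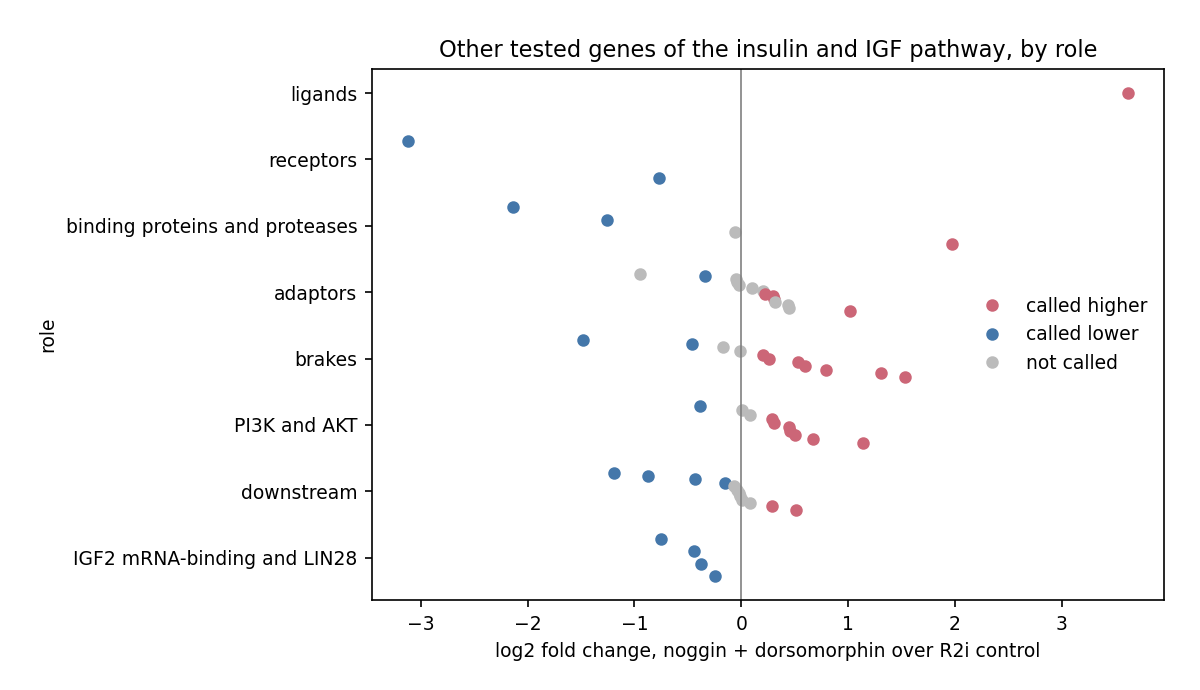
Log2 fold change of BMP-inhibited over control cultures for the 58 tested genes of the pathway outside the 10, by role, coloured by the call at an adjusted p of 0.05. Igf2 (3.62) and Insrr (-3.12) lie at the ends, and all 4 genes of the IGF2 messenger-binding and LIN28 group lie below 0.

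The nearest protein-coding neighbours of Grb10 and the binding protein genes were looked up on the chromosome. On the lower-coordinate side of Grb10, 32.4 kb away, Ddc, the aromatic amino acid decarboxylase, rose by 1.15 on the log2 scale (SE 0.14, adjusted p = 1.07e-05), with means of 12.4 ± 1.09 and 27.5 ± 6.10 CPM (SD, n = 3). On the other side Cobl, an actin nucleator gene 198 kb away, fell by 0.78 (SE 0.09, adjusted p = 2.31e-05), with means of 387 ± 3.52 and 226 ± 33.9 CPM. Igfbp2 and Igfbp5 are neighbours with converging strands, 5.46 kb apart, at 84.8 and 0.0754 CPM per kilobase in control. On the other side of Igfbp2, 111 kb away, Rpl37a rose by 0.43 (adjusted p = 5.46e-07). Tns3, 1220 kb from Igfbp3, rose by 0.76 (adjusted p = 4.12e-10), and Tnp1, the other neighbour of Igfbp5, had 0 counts. Beside Igfbp4, Tns4 rose by 3.00 (28 and 208 counts) and Top2a fell by 0.26 on the log2 scale.

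Some genes followed the 6-library pattern of Grb10 closely. Likeness was the root mean square difference in log2 CPM after each gene was centred on its mean over the 6 libraries. It was taken over 10496 other tested protein-coding genes whose log2 CPM averaged 2 or more. Genes with clone or predicted names were left out. The nearest were Fam129a (0.0330), Cryzl1 (0.0349), Spata31d1a (0.0445), Creld2 (0.0494) and Vegfa (0.0544). Fam129a was at 256, 256 and 255 CPM in control replicates and 70.2, 72.2 and 60.4 CPM under BMP inhibition. With 2 groups of 3, this likeness rests largely on the size of the difference between them.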

How the data were processed

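Poly(A) RNA of 6 cultures was sequenced from strand-marking libraries, per the labels' protocols. The deposited files hold raw read counts per Ensembl gene. Tools listed without a role in the submitters' processing notes are STAR 2.6.1 and HTSeq 0.9.1, cutadapt 1.4.2, CASAVA 1.8.2, and DESeq2, with GRCm38.p6 as the genome. The annotation and strand setting are not given in the sources used here. The 5 rows that name no gene (25.6% to 26.4% of reads) were left out. Symbols and positions came from GENCODE M21 (53360 of 53465 identifiers matched).

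Counts were filtered with the edgeR 4.0.16 default (minimum count 10, total 15), scaled by TMM and compared with its quasi-likelihood F test, two-sided, with Benjamini-Hochberg adjustment over 15951 genes and a threshold of 0.05. CPM are TMM-scaled, and log2 CPM used a prior count of 2. The median standard error was 0.087 (log2). In simulated counts for this comparison (15741 genes), 62% of 50 genes changed 1.3-fold and 98% of 50 changed 1.5-fold were recovered, and 4.8% of calls were false. Changed genes there were drawn only above a minimum CPM, and the same dispersion was set for every gene and both groups. Far fewer genes changed than were called in the data, where BMP-inhibited replicates also varied more. These rates are therefore not those of the data, above all for genes of few counts. Alternatives were DESeq2 1.42.0, limma 3.58.1 (voom), other scalings and filters, a replicate block and leaving out each library. The software was run in R 4.3.3 and Python 3.11.15.

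The genes, lists, motifs and tests were chosen with earlier results of these data known. Named were the 10 genes, all other ligands and receptors, up to 5 further genes a role with the smallest p, the nearest protein-coding neighbours and the 5 genes most like Grb10, and 1 gene that this rule names is not reported here. Grb7, Grb14, Foxo1, Foxo3, Foxo4, Pappa, Pappa2, Igfbp1 and Pik3r1 were added after their values were seen. The p-values measure the spread between 3 cultures a group of 1 line.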

Additional observations from a re-analysis of the deposited data

How the results depend on the processing

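Under 14 alternatives (13 for Igfbp5, too low for the stricter filter) no difference among the 10 genes changed sign except that of Igfbp4, whose log2 fold change ranged from -0.06 to 0.10. That of Grb10 ranged from -2.01 to -1.90, Igfbp3 from 2.03 to 2.16, Irs2 from 0.82 to 1.02, Irs1 from -1.37 to -0.96 and Insr from -0.68 to -0.45. Called genes of the wider pathway numbered 20 to 23 higher and 15 to 19 lower. The largest shift came with library totals in place of TMM, at 20 and 19. Igfbp7, not called, had a log2 fold change of 0.066 or 0.096 without BMP-inhibited replicate 1 or 3 and of -0.364 without replicate 2. By CPM Grb10 ranked 2 of the 10 in control and per kilobase of exon 3, since Igfbp2 is short. The median SD of log2 CPM among BMP-inhibited libraries was 0.0963 without replicate 2. Replicate numbers gave no pairing: deviations of same-numbered libraries correlated at -0.0443, 0.00791 and 0.0287. With the replicate block, 5127 genes were higher and 5052 lower, and 22 and 17 of the wider pathway. Irs1, Igfbp5, Igf2 and Insrr rest on few counts, which limits their precision.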
